A study of Mus musculus with 4 samples.

Results

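Translation initiation and elongation factors are the proteins that start and extend protein chains on the ribosome. Their genes were taken here as all genes whose array symbol begins with Eif1 to Eif6, Eef1 or Eef2, and 58 such genes were measured among 18193 in all. The set also holds kinases, binding proteins and methyltransferases that act on these factors and carry the same symbols. The values came from 4 arrays of total RNA. Epiblast-like tissue at day 3 of SFEBq, a serum-free culture in which dissociated mouse embryonic stem cells quickly re-aggregate and float, was set against mouse embryonic stem cells at day 0. Each day had 2 samples, and all 4 carry the same source label, with no genotype or added agent named. The labels do not state that the duplicates were separate cultures, so the p-values reflect no more than the spread among these 4 arrays, and that spread may be technical.

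In initiation, eIF2 brings the initiator tRNA to the small ribosomal subunit, eIF3 and eIF1A prepare that subunit, and the eIF4 proteins recruit the capped mRNA and unwind it. Phosphorylation of eIF2 by stress kinases blocks its recycling by eIF2B, and binding of eIF4E by the 4E-BP proteins blocks cap recognition, so cells control protein synthesis mainly at these steps. In elongation, eEF1A delivers aminoacyl-tRNA and eEF2 moves the ribosome along the mRNA. Embryonic stem cells are known for a low rate of protein synthesis that increases as they differentiate.

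Values are log2 signals from RMA, which normalizes arrays to a like distribution and summarises each probe set, the group of probes for a transcript. For a gene with several probe sets, the brightest on average across the arrays was kept. Signals of different probe sets depend on the probes as well as on the transcript, so levels of single genes were not compared. A difference is day 3 minus day 0 with the standard error (SE) of a limma fit over all genes, and the call threshold was a Benjamini-Hochberg adjusted p of 0.05 across that fit. RMA makes the arrays' totals alike, so fewer cells of a type and less RNA per cell cannot be told apart in these bulk samples, nor can a change in total mRNA be seen.

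The marker genes went with the labels. All 7 measured epiblast markers were called higher at day 3, with a mean log2 signal of 11.8 and 11.7 in the day 3 arrays, against 7.72 and 7.71 in the day 0 arrays. All 10 naive pluripotency markers were called lower, with 8.30 and 8.24 at day 3, against 11.2 and 11.3 at day 0. Markers of another tissue also moved, since 13 of 14 primitive and visceral endoderm genes were called higher, at 9.74 and 9.82 on average at day 3, against 7.004 and 6.91 at day 0. Fibroblast markers averaged 6.21 and 6.21 at day 3, against 6.38 and 6.33 at day 0, and 4 of 11 were called higher and 3 lower. The part of these cell types in the differences below was not tested. Of 7 proliferation genes 1 was called higher and 2 lower, and of 5 genes of pluripotency in general 1 was called higher and 3 lower.

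Of the 58 translation factor genes, 13 were called higher at day 3, 19 lower and 26 were not called. The called share of 55.2% stands beside 42.3% of all genes and 62.7% of the 9096 genes above the median level, to which 56 of the 58 belonged. By direction, 22.4% of the members were called higher against 20.9% of all genes, and 32.8% lower against 21.4%. Among genes above the median level, 29.0% were called higher and 33.7% lower, so neither of the members' shares stood above that of other bright genes. The median difference was -0.06 for the members, 0.01 for all genes and -0.04 for the brighter genes.

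Differences of the kept probe sets were small. Their median absolute size was 0.19 on the log2 scale for the members, against 0.31 for genes above the median level and 0.21 for all genes. The members' median signal was 11.6, against 9.21 for genes above the median level. The part of signal level, and of keeping the brightest probe set, in these sizes was not tested. Called differences of at least 0.5 were found for 15 members, 6 higher and 9 lower, which is 25.9% of the members against 32.5% of genes above the median level and 24.2% of all genes. A called difference of at least 1, a doubling, was found for 1 member, Eif5a2, against 13.1% of the brighter genes and 10.2% of all genes. Duplicate arrays differed for a member by a median of 0.05 on either day, and by at most 0.27 at day 3 and 0.38 at day 0. Day 3 and day 0 arrays were fully separate for 47 members, or 81.0%, against 69.0% of all genes and 84.4% of the brighter genes. The 47 include all 32 called members.

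**Figure D1:**
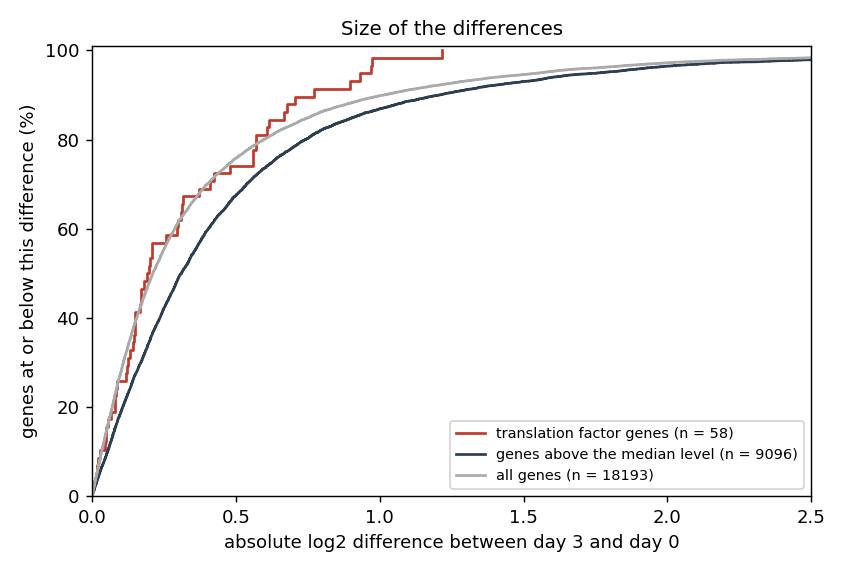
Share of genes (y axis, percent) whose absolute log2 difference between day 3 and day 0 is at or below the value on the x axis, for the 58 translation factor genes, the 9096 genes above the median level and all 18193 genes. The members' curve lies above that of the brighter genes, with medians of 0.19 against 0.31, and ends at 1.22, the value of Eif5a2.

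**Figure D2:**
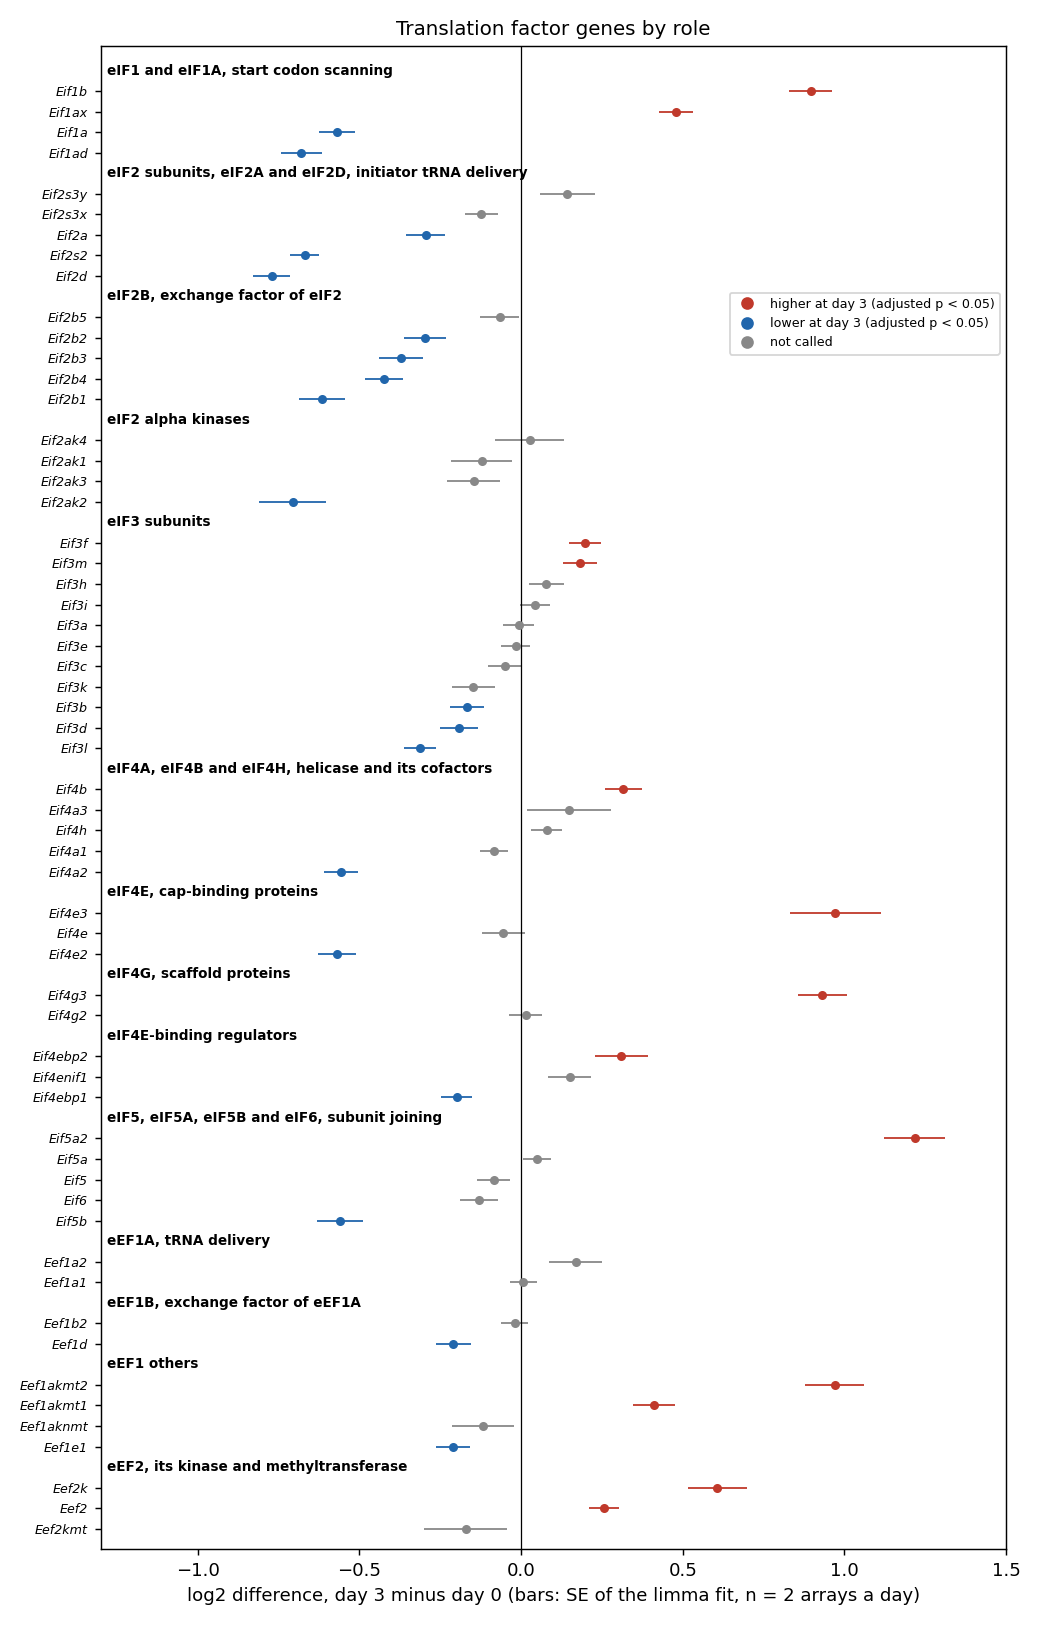
Log2 difference (x axis, day 3 minus day 0) of each of the 58 genes, grouped by role, with bars for the SE of the limma fit over 2 arrays a day. Genes of eIF2B lie left of 0, the eIF3 subunits lie between -0.31 and 0.20, and the largest rise is that of Eif5a2.

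Members that changed most are set out first with their promoter sequences, because among the probe sets kept Eif5a2 had the largest rise and Eif2d the largest fall. With probe sets averaged per gene, Eif4e3 (1.07) lay above Eif5a2 (1.03), and Eif2s2 (-1.01) had the largest fall, with Eif2d at -0.42. RefSeq promoter windows (build GRCm38.p6) were matched by symbol for 47 of the 58 genes, 11 of them called higher, 15 lower and 21 not called. The window searched was the 250 bases before the first listed start, on both strands, and 7 of the 47 genes have more than 1 start listed. The E-box CACGTG, a sequence that Myc and related factors can bind, was present in 5 of the 11 genes called higher, in 0 of the 15 called lower and in 4 of the 21 not called. Of all 14452 measured genes with a window, 7.56% held it. The ETS family sequence CCGGAAG was present in 5 genes called higher, 3 called lower and 1 not called, against 10.58% of all genes. For neither sequence was a share taken among genes above the median level, to which most members belong. Motif and direction were looked at together, so these counts are a description without a test, and a match does not show that a factor binds.

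The windows below are printed 5′ to 3′ in the direction of transcription, and capitals mark CACGTG and CCGGAAG. That of Eif5a2 (chr3:28781027-28781276, plus strand) holds 2 of each, and that of Eif2d (chr1:131152957-131153206, plus strand) holds neither.
Eif5a2: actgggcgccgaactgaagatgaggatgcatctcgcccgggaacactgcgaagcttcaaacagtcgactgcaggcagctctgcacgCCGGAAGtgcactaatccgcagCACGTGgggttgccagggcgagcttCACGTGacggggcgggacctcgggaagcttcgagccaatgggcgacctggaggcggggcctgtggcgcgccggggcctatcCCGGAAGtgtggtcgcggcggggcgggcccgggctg
Eif2d: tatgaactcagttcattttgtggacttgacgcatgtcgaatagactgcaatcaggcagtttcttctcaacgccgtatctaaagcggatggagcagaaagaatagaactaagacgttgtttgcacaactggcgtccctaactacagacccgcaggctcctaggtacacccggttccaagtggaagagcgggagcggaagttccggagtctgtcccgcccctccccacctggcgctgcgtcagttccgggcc

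For the other 4 genes called higher with an E-box, the stretch around it is shown. These are Eif1b (chr9:120492555-120492605), Eef2k (chr7:120842773-120842830), Eef2 (chr10:81176561-81176620) and Eif3f (chr7:108934320-108934379), all on the plus strand. The E-box begins 24 bases before the start in Eif1b, 31 in Eef2k, 43 in Eef2 and 68 in Eif3f. These positions were not compared with those of E-boxes in members not called or in other genes.
Eif1b: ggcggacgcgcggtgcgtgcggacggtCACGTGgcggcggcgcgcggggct
Eef2k: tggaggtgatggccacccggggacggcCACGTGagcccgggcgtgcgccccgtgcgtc
Eef2: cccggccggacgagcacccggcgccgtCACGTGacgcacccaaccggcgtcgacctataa
Eif3f: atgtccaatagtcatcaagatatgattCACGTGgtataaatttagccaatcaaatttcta

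Other sequences were rare or near the background. The amino acid response element of ATF4, TGATGNAA, was present in 1 of the 47 members, against 2.43% of all genes, and the interferon-stimulated response element in 1, against 2.63%. The NRF1 site was present in 1 member, against 1.25% of all genes, the CCAAT box in 13 (27.7% against 35.7%) and TATAAA in 4 (8.51% against 9.02%). TATAAA and CCAAT matches can lie close to the E-box, as in Eif3f, but share no base with it there.

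Messages of many translation factors are known to begin with a run of pyrimidines, the TOP motif, through which the kinase mTOR controls their translation. A C at the listed start followed by 4 bases that are each C or T was found in 2 members, Eif3f and Eif2s3x, or 4.26%, against 2.37% of all genes. Their first 20 bases are shown with the pyrimidine run of 11 in capitals (Eif3f chr7:108934415-108934434, plus strand, and Eif2s3x chrX:94212632-94212651, minus strand). The count depends on the exact base listed as the start.
Eif3f: CTCTCTTTCTCggcaagatg
Eif2s3x: CTTTTCTCTCCgagcaagat

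Among the factors of start codon scanning, 2 of 4 measured genes were called higher and 2 lower. The shares were 29.0% higher and 33.7% lower for genes above the median level, and 20.9% and 21.4% for all genes. Eif1b, a close relative of the scanning factor gene Eif1, had 10.88 and 10.83 in the day 3 arrays, against 9.91 and 10.01 in the day 0 arrays. It was higher by 0.90 ± 0.07 (SE, limma adjusted p = 1.37e-06), a 1.86-fold rise. Eif1ax, the X-linked gene of eIF1A, had 12.57 and 12.61 at day 3, against 12.13 and 12.08 at day 0, and rose by 0.48 ± 0.05. Its other 2 probe sets were called higher as well, by 0.67 and 0.62.

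Eif1a, the autosomal gene of eIF1A, moved the other way, with 11.31 and 11.38 at day 3, against 11.91 and 11.92 at day 0. It fell by 0.57 ± 0.06 (limma adjusted p = 1.31e-05), and its second probe set by 0.69. Eif1ad, which encodes a nuclear protein with an eIF1A domain, had 9.97 and 9.99 at day 3, against 10.65 and 10.68 at day 0. It fell by 0.68 ± 0.06, while the other Eif1ad probe set differed by 0.08 and was not called, and the mean of both was -0.30. Day 3 and day 0 arrays were separate in all 4 genes, as in 84.4% of genes above the median level and 69.0% of all genes. The difference between Eif1ax and Eif1a was not itself tested. A further probe set is annotated to Eif1a and 2 other genes at once, Gm4027 and BB287469, and was used for none of them. Its signal was 7.93 and 7.88 at day 3, against 11.42 and 10.99 at day 0, a difference of -3.30 that is larger than that of any probe set assigned to 1 member.

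**Figure D3:**
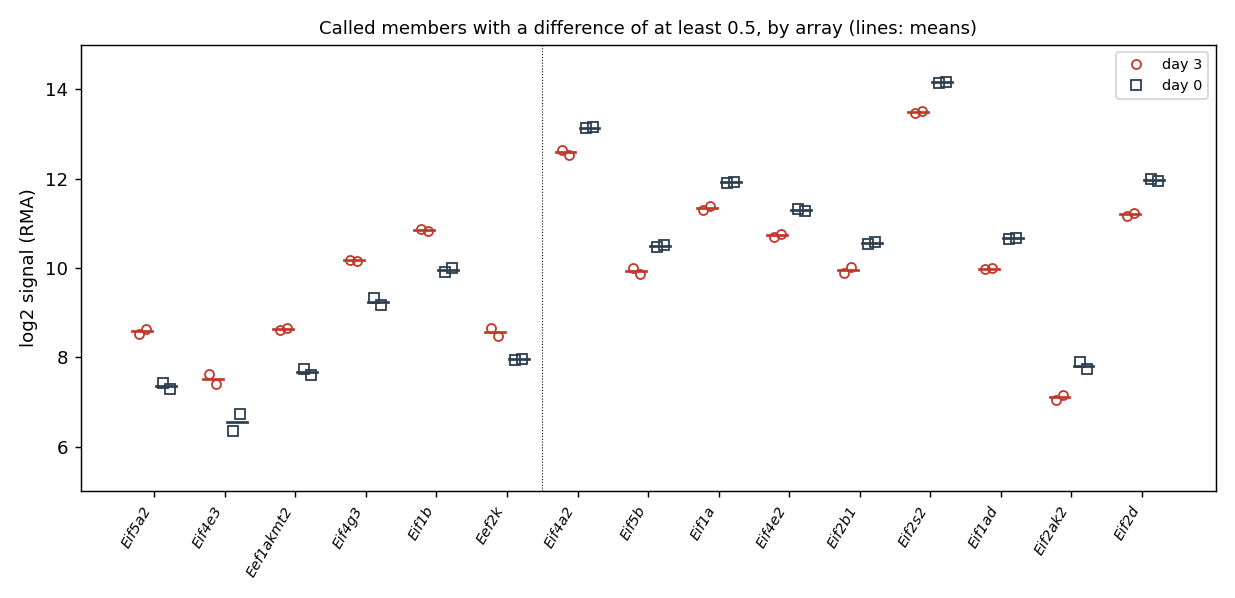
Log2 RMA signal (y axis) of the 15 called members with a difference of at least 0.5, with the 2 day 3 arrays as circles left of the 2 day 0 arrays as squares, and lines at the means. The 6 genes left of the dotted line, from Eif5a2 to Eef2k, are higher at day 3, and the 9 to its right, from Eif4a2 to Eif2d, are lower, with no overlap between the days in any of them.

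Of 5 measured genes that deliver the initiator tRNA, 3 were called lower and 0 higher. Shares called were 33.7% lower and 29.0% higher among genes above the median level, and 21.4% and 20.9% among all genes. Eif2s2, which encodes the beta subunit of eIF2, had 13.46 and 13.51 at day 3, against 14.15 and 14.16 at day 0. It fell by 0.67 ± 0.04 (limma adjusted p = 6.60e-07), and its other 5 probe sets, all called lower, had differences of -0.71, -0.75, -0.87, -1.40 and -1.65. All 6 probe sets thus fell, but by different amounts. Eif2d, whose protein can bring tRNA to the ribosome outside the eIF2 pathway, had 11.18 and 11.24 at day 3, against 12.002 and 11.954 at day 0. It fell by 0.77 ± 0.06 (limma adjusted p = 1.32e-06), and 2 of its other 5 probe sets were called lower and none higher.

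Eif2a, which encodes a further protein that binds initiator tRNA and is distinct from the alpha subunit of eIF2, fell by 0.30 ± 0.06. Its arrays lay at 10.81 and 10.72 at day 3, against 11.06 and 11.06 at day 0. The gamma subunit of eIF2 has an X-linked and a Y-linked gene in the mouse. Eif2s3x had 12.54 and 12.49 at day 3, against 12.66 and 12.62 at day 0, and its difference of -0.12 ± 0.05 was not called (limma adjusted p = 0.0768). Eif2s3y had 10.71 and 10.70, against 10.70 and 10.43, and its difference of 0.14 ± 0.08 was not called (limma adjusted p = 0.2158). Without day 0 replicate 1 the difference was 0.28, and without day 0 replicate 2 it was 0.01, so it depended on which day 0 array was kept.

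Genes of eIF2B, the complex of 5 subunits that reloads eIF2 with GTP, were called lower in 4 of 5 cases, beside 33.7% of genes above the median level and 21.4% of all genes. Eif2b1, the alpha subunit gene, had 9.88 and 10.03 at day 3, against 10.54 and 10.59 at day 0, and fell by 0.62 ± 0.07 (limma adjusted p = 4.44e-05). Eif2b4, of the delta subunit, fell by 0.42 ± 0.06 and Eif2b3, of the gamma subunit, by 0.37 ± 0.07. Eif2b2, of the beta subunit, fell by 0.30 ± 0.07, and without day 3 replicate 1 its difference was -0.25 and not called. Eif2b5, of the catalytic epsilon subunit, had 11.003 and 11.061 at day 3, against 11.054 and 11.143 at day 0. These overlap, and its difference of -0.07 ± 0.06 was not called. The median over the 5 genes was -0.37, against -0.04 for all genes above the median level.

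The eIF2 alpha kinases shut down initiation under stress, each in answer to a different signal. Eif2ak2, encoding the kinase PKR that senses double-stranded RNA, had 7.04 and 7.17 at day 3, against 7.89 and 7.73 at day 0. It fell by 0.71 ± 0.10 (limma adjusted p = 2.39e-04), and its other probe sets were called lower by 0.74 and 1.23. The other 3 kinase genes were not called. Eif2ak1, of the heme-regulated kinase, had 8.05 and 7.98 at day 3, against 8.23 and 8.04 at day 0, and a difference of -0.12 ± 0.10. From the mean of its probe sets it was -0.28 and called, since 2 dimmer probe sets were called lower, by 0.72 and 0.34. Eif2ak3, of the kinase PERK of the endoplasmic reticulum, had a difference of -0.15 ± 0.08, and Eif2ak4, of the amino acid sensor GCN2, one of 0.03 ± 0.11. Whether Eif2ak2 differed from the other kinase genes was not tested.

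Genes of eIF3, the largest initiation factor, stayed within a narrow band. Of 11 measured subunit genes, 2 were called higher, 3 lower and 6 were not called, with differences between -0.31 and 0.20 and a median of -0.02. Shares called were 29.0% higher and 33.7% lower among genes above the median level, and 20.9% and 21.4% among all genes. Eif3l had 12.60 and 12.56 at day 3, against 12.87 and 12.91 at day 0, and fell by 0.31 ± 0.05 (limma adjusted p = 4.17e-04). Its dimmer probe sets, with -0.36 and 0.01, were not called. Eif3f rose by 0.20 ± 0.05, from arrays at 13.29 and 13.36 at day 3, against 13.12 and 13.14 at day 0.

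The other eIF3 calls lay near the threshold. Eif3d (-0.19 ± 0.06, limma adjusted p = 0.0229) and Eif3b (-0.17 ± 0.05, adjusted p = 0.0240) were the weakest calls of the whole set, and Eif3m had 0.18 ± 0.05 (adjusted p = 0.0176). With 1 array left out, Eif3f was not called without day 3 replicate 2 (0.16). Eif3d was not called without day 0 replicate 2 (-0.12), day 3 replicate 1 (-0.22) or day 3 replicate 2 (-0.16), nor with probe sets averaged (-0.11). Eif3b was not called without day 0 replicate 1 (-0.15), day 3 replicate 1 (-0.18) or day 3 replicate 2 (-0.15), and Eif3m without the same 3 arrays (0.18, 0.19 and 0.17). None of the eIF3 calls therefore held in every alternative tried, Eif3l losing its call only from the mean of its probe sets (-0.22).

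Those not called included Eif3e, the brightest eIF3 probe set, with 13.41 and 13.39 at day 3, against 13.42 and 13.41 at day 0. Eif3c had 13.35 and 13.37, against 13.35 and 13.47, and Eif3i had 13.20 and 13.18, against 13.15 and 13.14. Eif3a, of the scaffold subunit, differed by -0.01 ± 0.05, Eif3h by 0.08 ± 0.05 and Eif3k by -0.15 ± 0.07. Eif3k was called without day 0 replicate 1 (-0.23). In 3 of these 6 genes, Eif3a, Eif3c and Eif3e, the arrays of the days overlapped.

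Of the helicase eIF4A and its cofactors, 1 gene of 5 was called higher and 1 lower. Beside this, 29.0% of genes above the median level were called higher and 33.7% lower, and 20.9% and 21.4% of all genes. Eif4a1, the main helicase gene of dividing cells, had 13.93 and 13.94 at day 3, against 13.9999 and 14.0367 at day 0, and its difference of -0.08 ± 0.04 was not called (limma adjusted p = 0.1582). Its paralogue Eif4a2 had 12.64 and 12.54, against 13.13 and 13.16, and fell by 0.56 ± 0.05 (limma adjusted p = 9.71e-06). Eif4b, which stimulates the helicase, had 12.33 and 12.32 at day 3, against 11.95 and 12.07 at day 0. It rose by 0.32 ± 0.06, and its other probe sets were called higher by 0.34 and 0.49. Eif4h, a related cofactor, had 13.23 and 13.27, against 13.20 and 13.14, a difference of 0.08 ± 0.05 that was not called.

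Eif4a3 encodes a helicase of the exon junction complex, which marks spliced mRNA. Its probe set assigned to 1 gene was dim, with 4.88 and 5.02 at day 3, against 4.71 and 4.90 at day 0, and was not called. A brighter probe set is annotated to Eif4a3 and Gm5576 together and had a mean of 12.25 at day 3, against 12.52 at day 0. Its difference of -0.26 was called over all probe sets, and the part of Eif4a3 in it was not tested.

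The cap-binding genes went 3 ways. Eif4e, the cap-binding protein of general initiation, had 11.83 and 11.87 at day 3, against 11.814 and 11.9998 at day 0. These overlap, and the difference of -0.05 ± 0.07 was not called. Eif4e2, whose protein binds the cap but does not join the eIF4F complex and can repress translation, had 10.71 and 10.76, against 11.33 and 11.28. It fell by 0.57 ± 0.06 (limma adjusted p = 1.98e-05), with 2 of its other 4 probe sets also called lower. Eif4e3, another cap-binding gene, had 7.64 and 7.40 at day 3, against 6.36 and 6.73 at day 0. It rose by 0.97 ± 0.14 (limma adjusted p = 2.26e-04), 1.96-fold, and its second probe set by 1.17.

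Among the scaffold genes of eIF4G, 1 of 2 measured was called higher, beside 29.0% of genes above the median level and 20.9% of all genes. Eif4g1 was not among the genes measured. Eif4g3, which encodes a scaffold that joins eIF4E, eIF4A and eIF3, had 10.19 and 10.16 at day 3, against 9.32 and 9.16 at day 0. It rose by 0.93 ± 0.08 (limma adjusted p = 2.95e-06), 1.91-fold, while its other 3 probe sets, all below 7 in mean signal, were not called, and the mean over all 4 was 0.30. Eif4g2, encoding the scaffold DAP5 that lacks the eIF4E site, had 13.94 and 13.83, against 13.88 and 13.85. These overlap, and its difference of 0.01 ± 0.05 was not called. A dimmer Eif4g2 probe set was called lower, by 0.20.

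The repressors of eIF4E moved little and in opposite directions. Eif4ebp1, of 4E-BP1, had 12.63 and 12.62 at day 3, against 12.82 and 12.84 at day 0, and fell by 0.20 ± 0.05 (limma adjusted p = 0.0061). Eif4ebp2, of 4E-BP2, had 11.47 and 11.25, against 10.97 and 11.13, and rose by 0.31 ± 0.08 (limma adjusted p = 0.0108). Without day 3 replicate 1 the difference of Eif4ebp2 was 0.20 and not called, and with probe sets averaged it was 0.14 and not called. Eif4enif1, which carries eIF4E into the nucleus and to sites of mRNA repression, had a difference of 0.15 ± 0.07 that was not called (limma adjusted p = 0.0979), but was 0.20 and called without day 0 replicate 1. Eif2s3x and Eif4enif1 were the members closest to a call from outside.

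Among genes that act at subunit joining and on eIF5A, Eif5a2 rose most. It encodes the second isoform of eIF5A, the hypusine-bearing factor that helps the ribosome through difficult stretches, and is known for a narrower expression than Eif5a. Eif5a2 had 8.52 and 8.64 at day 3, against 7.43 and 7.30 at day 0. The rise was 1.22 ± 0.09 (limma adjusted p = 2.14e-06), 2.32-fold, and its second probe set rose by 0.85. Eif5a had 14.16 and 14.12, against 14.09 and 14.09, and its difference of 0.05 ± 0.04 was not called.

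Eif5b, whose GTPase joins the ribosomal subunits, had 10.01 and 9.86 at day 3, against 10.48 and 10.51 at day 0. It fell by 0.56 ± 0.07 (limma adjusted p = 8.67e-05), and 1 of its other 2 probe sets was called lower, by 0.79. Eif6, which keeps the large subunit from joining early, had a difference of -0.13 ± 0.06 that was not called, and that was -0.18 and called without day 0 replicate 1. Eif5, which makes eIF2 hydrolyse its GTP, was the 1 member with probe sets called in both directions. The kept probe set had 12.26 and 12.23 at day 3, against 12.35 and 12.31 at day 0, and was not called (-0.08 ± 0.05). Of its others, 3 were called higher, by 0.17, 0.21 and 0.25, and 1 was called lower, by 0.77, so no direction can be given for this gene.

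In elongation, the genes of eEF1A were not called. Eef1a1, which gives the main form of eEF1A, had 14.78 and 14.74 at day 3, against 14.74 and 14.77 at day 0. These overlap, and its difference was 0.01 ± 0.04 (limma adjusted p = 0.9208). Eef1a2, known as the form of muscle and neurons, had 8.52 and 8.56, against 8.40 and 8.34, a difference of 0.17 ± 0.08 that was not called (limma adjusted p = 0.1293).

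Of the exchange factors of eEF1A, Eef1b2 had 14.26 and 14.27 at day 3, against 14.29 and 14.28 at day 0, and was not called (-0.02 ± 0.04). Eef1d had 12.98 and 12.97, against 13.12 and 13.25, and fell by 0.21 ± 0.05 (limma adjusted p = 0.0102), with another probe set lower by 0.28. The fall of Eef1d was not called without day 0 replicate 2 (-0.14), day 3 replicate 1 (-0.21) or day 3 replicate 2 (-0.21). Eef1e1, whose protein belongs to the complex of tRNA synthetases, had 11.87 and 11.91, against 12.09 and 12.11, and fell by 0.21 ± 0.05. It was not called without day 3 replicate 1 (-0.19).

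Among 3 genes of enzymes that methylate eEF1A, 2 were called higher, beside 29.0% of genes above the median level and 20.9% of all genes. Eef1akmt2, of a lysine methyltransferase, had 8.61 and 8.67 at day 3, against 7.74 and 7.60 at day 0. It rose by 0.97 ± 0.09 (limma adjusted p = 8.24e-06), 1.96-fold, and has no second probe set. Eef1akmt1, of another lysine methyltransferase, had 10.55 and 10.59, against 10.20 and 10.12, and rose by 0.41 ± 0.06, with 2 of 3 other probe sets also called higher. Eef1aknmt had 7.29 and 7.31, against 7.45 and 7.38, and its difference of -0.12 ± 0.10 was not called, while its other probe sets had 0.14 and 0.02.

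Eef2 and the gene of its kinase were both called higher. Eef2, the translocation factor, had 13.77 and 13.71 at day 3, against 13.48 and 13.50 at day 0. It rose by 0.26 ± 0.05 (limma adjusted p = 9.84e-04), 1.19-fold. Eef2k, whose kinase phosphorylates eEF2 and slows elongation, had 8.65 and 8.48, against 7.95 and 7.97. It rose by 0.61 ± 0.09 (limma adjusted p = 2.94e-04), 1.52-fold, and another probe set rose by 0.58. Eef2kmt, the gene of a methyltransferase of eEF2, had a difference of -0.17 ± 0.13 and was not called.

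Of the 32 called members, 21 had another probe set above the arrays' first quartile. Among these 21, 16 had one called in the same direction, 5 had none called and 0 had one called in the opposite direction. Of 19 members that were not called and had another probe set, 3 had one called, namely Eif2ak1, Eif4g2 and Eif5. In 12 members some probe set above the first quartile had the opposite sign to the one kept, namely Eif1ad, Eif2d, Eif2b5, Eif2ak3, Eif3c, Eif3l, Eif4g2, Eif4g3, Eif4ebp2, Eif5, Eif5a and Eef1aknmt. Eif1, Eif2s1 and Eif4g1 were not among the genes measured. Eif4ebp3, Eif3j1, Eif3j2 and Eef1g had only probe sets annotated to several genes, which were not used. The differences were -0.35 with Ankhd1 for Eif4ebp3, and -0.20, -0.21 and -0.27 for Eif3j1 and Eif3j2 together. With Gm29753, Eef1g had 0.08 and, on a dim probe set, 0.02.

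**Figure D4:**
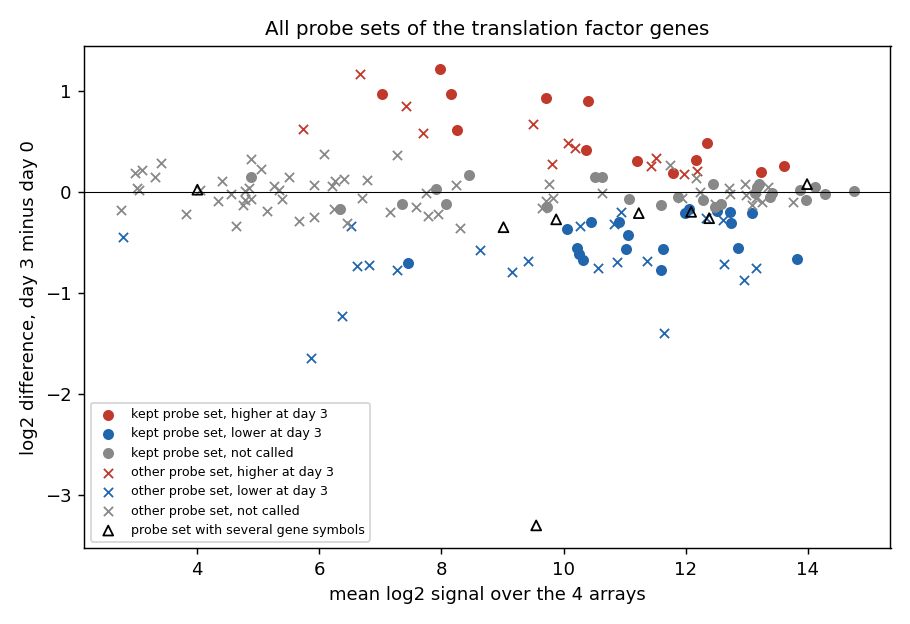
Log2 difference (y axis, day 3 minus day 0) against mean log2 signal (x axis) for every probe set annotated to a member, with circles for the probe set kept per gene, crosses for its other probe sets and triangles for the 8 annotated to several genes. Kept probe sets range from -0.77 to 1.22, and the lowest triangle, at -3.30, is the one shared by Eif1a, Gm4027 and BB287469.

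Genes that work with these factors but carry other symbols were taken from 7 lists by textbook role. Of 62 measured, 13 were called higher, 26 lower and 23 were not called, with a median difference of -0.12 against 0.01 for all genes. The 26 include Pabpc6, whose signal was so dim that no fall is read from it below. The called share of 62.9% stands beside 62.7% of genes above the median level and 42.3% of all genes, and the share called lower, 41.9%, beside 33.7% and 21.4%. Without day 3 replicate 2, 7 were called higher and 17 lower, and without day 3 replicate 1, 16 were called lower. In translation termination and ribosome recycling 7 of 8 genes were called lower and 0 higher, with a median of -0.30. The same 33.7% of brighter genes and 21.4% of all genes were called lower. Among the 7, Mcts1 (limma adjusted p = 0.0465) and Denr (limma adjusted p = 0.0313) lay near the threshold. Pelo, which rescues stalled ribosomes, fell by 0.76 ± 0.08, with 8.62 and 8.58 at day 3, against 9.33 and 9.38 at day 0. Gspt2 and Gspt1, of the release factor eRF3, fell by 0.60 ± 0.09 and 0.29 ± 0.05.

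Mitochondrial translation factors were called lower in 6 of 8 cases and higher in 0, with a median of -0.27. This stands beside 33.7% of brighter genes and 21.4% of all genes called lower. Among the 6, Mrrf (limma adjusted p = 0.0314), Gfm1 (adjusted p = 0.0277) and Mtif3 (adjusted p = 0.0232) lay near the threshold. Tufm, the mitochondrial counterpart of eEF1A, had 10.12 and 10.21 at day 3, against 10.69 and 10.83 at day 0, and fell by 0.60 ± 0.07. Of the enzymes that make hypusine on eIF5A and diphthamide on eEF2, 3 of 8 were called lower and 0 higher. This stands beside the same 33.7% of brighter genes and 21.4% of all genes called lower. Both hypusine enzyme genes were among the 3, Dhps with a fall of 0.39 ± 0.07 and Dohh with one of 0.35 ± 0.06. The largest fall of the list was that of Dph3 (-0.57 ± 0.06).

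Genes of signalling to initiation went both ways. Of 14 genes of the mTORC1 and Mnk pathways, 3 were called higher and 4 lower, with a median of -0.01. Called shares were 29.0% higher and 33.7% lower for brighter genes, and 20.9% and 21.4% for all genes. Pdcd4, encoding an inhibitor of eIF4A, had 11.09 and 11.02 at day 3, against 10.25 and 9.95 at day 0, and rose by 0.95 ± 0.09 (limma adjusted p = 1.14e-05). Deptor, an inhibitor of mTOR, rose by 0.63 ± 0.08 and Mknk2, a kinase gene of eIF4E, by 0.51 ± 0.06. Tsc2, another inhibitor of the pathway, fell by 0.49 ± 0.08, and Mtor itself had a difference of -0.02 ± 0.07.

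The integrated stress response is the program set off by the eIF2 alpha kinases. Its list had 6 of 11 genes called higher and 3 lower, with a median of 0.34. Of the brighter genes 29.0% were called higher and 33.7% lower, and of all genes 20.9% and 21.4%. The list also holds regulators of the response, such as Impact and Ppp1r15b, so these counts do not measure its activity. Ddit4, an inhibitor of mTORC1 induced by stress, had 11.07 and 10.70 at day 3, against 9.64 and 9.41 at day 0, and rose by 1.37 ± 0.12 (limma adjusted p = 4.18e-06). Atf4, the central transcription factor of the response, rose by 0.43 ± 0.09. Asns, of asparagine synthetase and a target of Atf4, fell by 0.44 ± 0.08. Members of this list thus went in different directions.

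In the list of poly(A)-binding proteins and partners, 3 of 6 genes were called higher and 1 lower. Brighter genes had 29.0% called higher and 33.7% lower, and all genes 20.9% and 21.4%. Paip1, whose protein links the poly(A)-binding protein to eIF3 and eIF4A, rose by 0.40 ± 0.08. The 1 lower call was Pabpc6, with 3.25 and 3.12 at day 3, against 3.83 and 4.25 at day 0. All 4 values lie below the first quartile of all probe sets, 4.32, so no fall of this transcript is read from them. Of 7 other helicases and adaptors 1 was called higher and 2 lower, beside the same shares of brighter and of all genes. Ncbp1, of the nuclear cap-binding complex, rose by 0.27 ± 0.07, and Dhx29, a helicase for structured leaders, fell by 0.61 ± 0.07.

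**Figure D5:**
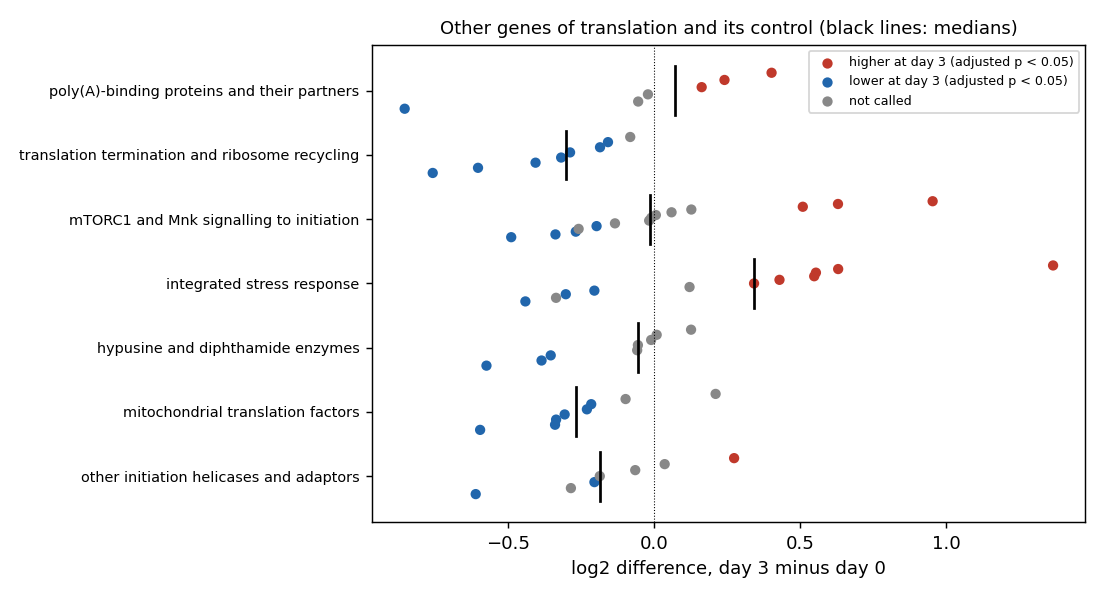
Log2 differences (x axis, day 3 minus day 0) of 62 genes in 7 lists of translation and its control (y axis), 1 point per gene coloured by call, with black lines at list medians. The median lies at -0.30 for termination and recycling and at 0.34 for the integrated stress response.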

How the data were processed

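Total RNA from 2 day 3 and 2 day 0 samples was hybridized to Affymetrix arrays. The deposited table holds log2 values made by the authors with RMA and R 2.13.0, per the submitters' processing notes, which give no further settings. There are 45101 probe sets in it, of which 64 are controls. Of the rest, 34945 have 1 gene symbol, 932 several and 9160 none in the platform annotation, and 0 symbols needed an update from RefSeq. The model was limma's (version 3.58.1, under R 4.3.3; lmFit, then eBayes with an intensity trend), two-sided, with 2 residual and about 8.02 prior degrees of freedom. The fit was tested on simulated data that left 17993 of 18193 genes unchanged. There it recovered 48% of genes changed by 0.5 and 96% of those changed by 1. Alternatives were other variance models, normalizations, level filters, probe set choices and thresholds, a replicate block, and each array left out. The number of arrays limits the precision. No detection calls were used. The members and lists were chosen with earlier results of these data known. Genes named were called members with a difference of at least 0.5, the extreme and brightest member of each role, the 12 brightest, those at the threshold, paralogues, and the extreme called genes of each pathway list. Other members and list genes, such as Gspt1, Gspt2, Dhps, Dohh, Deptor, Mknk2, Mtor and Atf4, and the motifs and sequences shown were chosen after their values were seen.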

Additional observations from a re-analysis of the deposited data

How the results depend on the processing

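Of the 32 called translation factor genes, 22 kept their call in every alternative that kept the gene, and 0 changed sign. The other 10 are Eif2b2, Eif3b, Eif3d, Eif3f, Eif3l, Eif3m, Eif4ebp1, Eif4ebp2, Eef1d and Eef1e1, all with differences of at most 0.31 in size. Without the intensity trend 8 of them were not called, and with probe sets averaged per gene 5. Of the 26 genes that were not called, 6 were called in some alternative. With every probe set tested, 24 member probe sets were higher and 41 lower, and of all 34945 probe sets with 1 symbol 5972 were higher and 6637 lower, since these count probe sets and not genes. With 1 array left out, 11 to 14 members were higher and 14 to 20 lower, while all genes gave 2908 to 3692 higher and 2895 to 3748 lower, and other translation genes 7 to 13 higher and 16 to 22 lower. The labels do not say whether the replicate numbers pair the samples. Deviations of the replicates with the same number had a correlation across genes of -0.02, which cannot show how the samples were collected. With the replicate block 13 members were higher and 20 lower, Eif3k being added. The cause of the other changes was not tested. The simulation left 17993 of 18193 genes unchanged, and there the fit recovered 48% of differences of 0.5. In the data 7703 genes were called, which makes the adjusted threshold less strict. That 48% therefore cannot be carried over to the members, though with 2 arrays a day small differences can be missed.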
